A study of Mus musculus with 2 samples.

Results

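The Ly49 receptors are C-type lectin-like receptors encoded by the Klra genes of the mouse natural killer (NK) gene complex. Every gene whose symbol in the platform annotation is Klra followed by a number was taken, except Klra16. This gave 10 genes of the 4331 with a named probe, each measured by 1 probe. They were compared between CD5-positive gamma delta T cells of LAT3YF spleens and the same population of wildtype spleens, which had been sorted by means of beads against CD5. The material was total RNA, hybridised on a pair of 2-colour expression arrays with the dyes reversed between them. The labels' + polarity array, the plus array below, carried LAT3YF in channel 2 and wildtype in channel 1. The - polarity array, the minus array below, carried LAT3YF in channel 1 and wildtype in channel 2. LAT3YF denotes a form of the adaptor LAT with tyrosines replaced by phenylalanine, and CD5 is a T cell surface glycoprotein. Nothing used here states the strain, the age or the number of animals behind each RNA. The arrays count as 1 replicate of the comparison, so no test of LAT3YF against wildtype was possible and every SD below is over the 2 arrays and covers technical error only.

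Ly49 receptors are best known from mouse NK cells, where most members are inhibitory: they bind MHC class I molecules and carry a tyrosine-based motif (ITIM) in the cytoplasmic tail that recruits the phosphatases SHP-1 and SHP-2. A minority lack this motif and signal instead through the adaptor DAP12, encoded by Tyrobp. Subsets of T cells, gamma delta T cells among them, also carry some Ly49 receptors, usually each on a fraction of the cells. The number and identity of Ly49 genes differ between inbred strains, and their coding sequences are closely related, so a probe for one member can also bind transcripts of another.

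Values are log10 ratios of the 2 populations, as deposited for the plus array and multiplied by -1 for the minus array. The labels do not say which population is the numerator, so a negative value marks a transcript more abundant in 1 population throughout, and which one is not known. The labels do not give the base of the logarithm either, and folds assume base 10. A gene counted as called if its arrays had 1 sign and its mean reached 2-fold, which is 0.301 in log10 units. This is a rule of size and not a test.

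In the RefSeq gene table (GRCm38.p6), 9 of the 10 members were found by gene identifier, all but Klra22. These 9 lie in 1 run of 14 Klra entries on chromosome 6, in the order Klra17, Klra5, Klra6, Klra4, Klra9, Klra7, Klra10, Klra1 and Klra2. The other 5 entries of that run, 3 of them pseudogenes, had no named probe. Klra2 stands off from the rest, with 5 protein-coding genes between it and Klra1. The table lists Klra22 among the synonyms of Klra1, so the Klra22 and Klra1 probes may report on the same gene.

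RefSeq promoter windows, from 250 bases before to 50 bases after an annotated start, were found for these 9 genes on the same build. The windows of Klra6, Klra5 and Klra9 are shown whole because they align closely. The mean log10 ratios of Klra5 and Klra9 differed by 0.040. Their ratios differed by 0.21 on the plus array and, in the opposite direction, by 0.29 on the minus array. The mean of Klra6 lay lower, with the widest SD of the family. On the plus array Klra6 and Klra5 differed by 0.12. Sequences run 5′ to 3′, and capitals mark 3 runs found in several members, GCAATTTCCTC, TTTCCTCTTTT and AGGAGGGGCAGAAAA, of which the first 2 overlap where both occur.
Klra6, chr6:130026905-130027204, minus strand: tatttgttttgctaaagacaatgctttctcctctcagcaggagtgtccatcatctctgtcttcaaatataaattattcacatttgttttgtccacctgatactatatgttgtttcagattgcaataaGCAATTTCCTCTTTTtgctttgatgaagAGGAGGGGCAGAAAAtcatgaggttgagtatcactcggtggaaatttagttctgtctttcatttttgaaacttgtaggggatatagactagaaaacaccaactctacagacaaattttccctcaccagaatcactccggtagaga
Klra5, chr6:129913175-129913474, minus strand: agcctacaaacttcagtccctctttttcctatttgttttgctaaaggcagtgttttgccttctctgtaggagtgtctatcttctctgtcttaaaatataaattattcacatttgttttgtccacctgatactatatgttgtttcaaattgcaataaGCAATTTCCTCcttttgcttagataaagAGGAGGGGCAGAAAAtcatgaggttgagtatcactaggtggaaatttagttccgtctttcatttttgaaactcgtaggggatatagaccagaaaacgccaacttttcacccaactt
Klra9, chr6:130193063-130193362, minus strand: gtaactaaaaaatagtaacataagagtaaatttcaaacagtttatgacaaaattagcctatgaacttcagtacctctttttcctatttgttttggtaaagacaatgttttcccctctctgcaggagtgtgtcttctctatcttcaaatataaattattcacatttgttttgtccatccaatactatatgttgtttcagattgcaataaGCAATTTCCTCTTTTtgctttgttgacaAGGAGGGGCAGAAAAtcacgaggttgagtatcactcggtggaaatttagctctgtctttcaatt
The matching stretches of 80 bases from 4 other members show the same block, the region of these runs, beside Klra genes with different ratios. In Klra4 and Klra7 it precedes genes that were called, and in Klra17 and Klra2 genes near 0.
Klra4, chr6:130067286-130067365, minus strand: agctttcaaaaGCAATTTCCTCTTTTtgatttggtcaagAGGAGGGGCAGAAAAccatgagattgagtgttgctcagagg
Klra7, chr6:130233347-130233426, minus strand: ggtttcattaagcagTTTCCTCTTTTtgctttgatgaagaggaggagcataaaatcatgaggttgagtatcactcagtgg
Klra17, chr6:129876682-129876761, minus strand: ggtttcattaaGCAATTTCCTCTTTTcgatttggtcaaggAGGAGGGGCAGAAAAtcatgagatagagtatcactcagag
Klra2, chr6:131247369-131247448, minus strand: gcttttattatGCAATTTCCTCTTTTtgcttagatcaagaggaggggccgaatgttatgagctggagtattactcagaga

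The runs were picked out of these windows, and counts for them describe the family only. On either strand, GCAATTTCCTC occurred in windows of 6 of the 9 members, against 0.0578% of all 32851 RefSeq promoter windows, which include those of the family. TTTCCTCTTTT also occurred in 6 of 9 members, against 0.149% of all windows, and AGGAGGGGCAGAAAA in 5 of 9, against 0.0274%. The RefSeq windows of Klra1 and Klra10 held none of these runs. The window of Klra10 aligned best, at 79.4% identity over 243 positions, with a second annotated start of Klra7. Short motifs of factors known from lymphocyte genes, chosen with these windows in view, were searched on both strands. The ETS-type motif AGAGGAA was found in 6 of the 9 members and in 10.4% of all windows. On the other strand it lies wholly within TTTCCTCTTTT, and the 6 members are the same. Its count in the family therefore follows from that run and is no separate result. The TCF/LEF motif CTTTGA was found in Klra6 and Klra7 (16% of all windows), and the RUNX motif TGTGGT (16.8%) and the GATA motif GATAAG (7.44%) in Klra1 alone among the members. The TATA-like motif TATAAA was in 5 of the 9, Klra5, Klra6, Klra7, Klra9 and Klra10, against 13.6% of all windows. A member counted if any of its windows held the letters, whereas the percentages are of windows. Many of the members' windows are alike, so their counts are not independent. A match of letters does not show that a factor binds.

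Of the 10 Ly49 genes, 5 were called, all on the negative side: Klra1, Klra6, Klra10, Klra4 and Klra7. Over all 4331 named genes, 5.03% were called negative, 3.72% positive and 8.75% in either direction. The mean was below 0 for 9 of the 10, as it was for 48.8% of all genes, and 6 were below 0 on both arrays, against 29.3% of all genes. The median of the members was -0.33 and that of all named genes 0.0023. The median of the members was -0.21 on the plus array and -0.44 on the minus array. Read as log2, Klra1, the largest of the family, would be at 1.66-fold and 0 members would be called. In RNA from whole sorted populations, a smaller share of cells with a transcript and less of it per cell cannot be told apart.

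**Figure D1:**
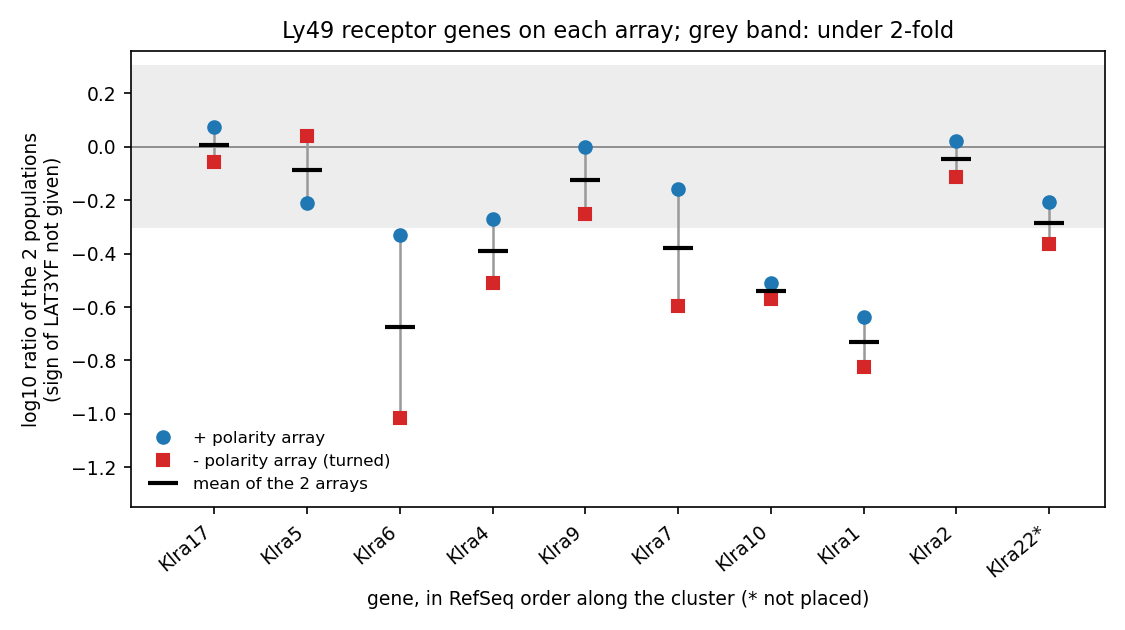
Log10 ratio of the 2 populations (vertical axis) for each Ly49 gene, in RefSeq order along the cluster with Klra22, which has no place there, at the right. Circles are the plus array, squares the turned minus array and black bars their mean, the grey band holds ratios under 2-fold, and which sign is LAT3YF is not known. Klra6, Klra4, Klra7, Klra10 and Klra1 lie below the band by their mean, and Klra17, Klra5, Klra9 and Klra2 inside it.

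Among the inhibitory members, Klra1, which encodes Ly49A, a receptor for H-2D molecules of some haplotypes, had the lowest mean. Its log10 ratio was -0.64 on the plus array and -0.83 on the minus array, with a mean of -0.73 ± 0.13 (SD, 2 arrays; 5.38-fold). Only 30 of the 4331 genes had a lower mean. Klra22, which encodes Ly49V, was at -0.21 and -0.37, with a mean of -0.29 ± 0.11 (1.93-fold). It lay just outside the threshold, past 2-fold on the minus array alone. If both probes report on 1 gene, as the synonym allows, they give that gene ratios that differ by more than either probe's SD, and their average is -0.51.

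Klra6, which encodes the inhibitory receptor Ly49F, had a log10 ratio of -0.33 on the plus array and -1.02 on the minus array. Its mean was -0.67 ± 0.48 (4.71-fold), with the widest spread of the family. Both arrays passed 2-fold, but the size ran from 2.14-fold to 10.4-fold. Klra10, which encodes the ITIM-bearing receptor Ly49J, was at -0.51 and -0.57, with a mean of -0.54 ± 0.043 (3.47-fold). This was the narrowest spread of the family. Klra1, Klra6 and Klra10 were the only members past 2-fold on each array on its own, a rule that 3.6% of all genes met on the negative side. They were also the 3 members past 2-fold on the plus array, where 5.17% of all genes were on the negative side. The same 3 were past 3-fold in the mean, where 2.22% of all genes were on the negative side. On the minus array 6 members were past 2-fold on the negative side, against 10.1% of all genes. In the mean, 6 were past 1.5-fold on that side, against 9.44% of all genes.

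Klra7 encodes Ly49G, an inhibitory receptor for H-2D molecules. Its ratio was -0.16 (1.44-fold) on the plus array and -0.60 (3.96-fold) on the minus array, with a mean of -0.38 ± 0.31 (2.39-fold). The mean passed 2-fold although the plus array alone did not. Klra9, which encodes Ly49I, an inhibitory receptor for MHC class I, was at 0.00071 on the plus array and -0.25 on the minus array, with a mean of -0.13 ± 0.18. It was not called, and its mean was smaller than its SD.

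Klra4 was the 1 measured member whose product, Ly49D, is an activating receptor. Its log10 ratio was -0.27 (1.87-fold) on the plus array and -0.51 (3.24-fold) on the minus array, with a mean of -0.39 ± 0.17 (2.46-fold). It was called, and of the called members only Klra7 was closer to the threshold. The activating member therefore lay on the same side as the called inhibitory ones, between Klra10 and Klra7 in size.

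The 3 remaining members are known for expression patterns that depart from the adult NK pattern. Like Klra9 and Klra22, none of them was called, where 8.75% of all named genes were. Klra5 encodes Ly49E, an inhibitory receptor of fetal NK cells and of some gamma delta T cells. It was at -0.21 on the plus array and 0.039 on the minus array (mean -0.085 ± 0.18), so the sign differed between the arrays. Klra2, which encodes Ly49B, a receptor of myeloid cells, was at 0.021 and -0.11 (mean -0.046 ± 0.095). Klra17, which encodes Ly49Q, a receptor best known from plasmacytoid dendritic cells, was at 0.073 and -0.058 (mean 0.0077 ± 0.092). All 3 means were smaller than their SD, as was that of Klra9. Klra17 and Klra5 are the first members in the RefSeq order and Klra2 is the last. Klra9, likewise not called, lies between the called Klra4 and Klra7.

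**Figure D2:**
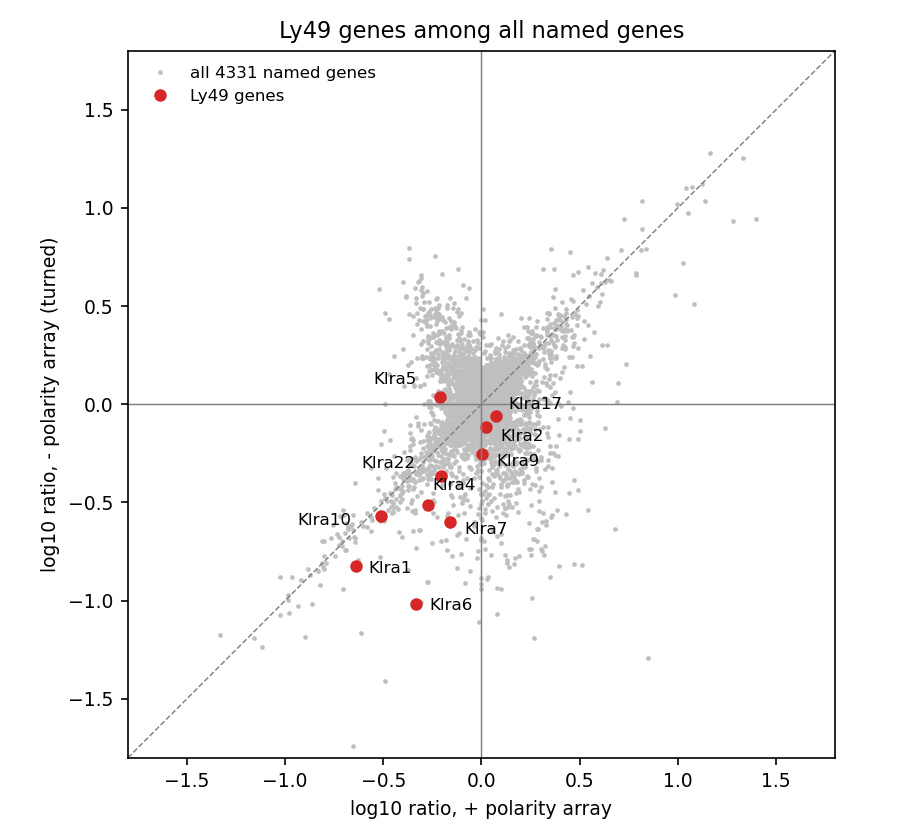
Log10 ratio on the plus array (horizontal) against the turned minus array (vertical) for all 4331 named genes (grey) and the 10 Ly49 genes (red), with the line of equal ratios dashed. Klra10 and Klra1 lie near the line, whereas Klra6 and Klra7 lie below it with larger ratios on the minus array.

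The SD between the arrays had a median of 0.15 over the Ly49 genes and of 0.058 over all named genes. Of the 10 members, 8 had the larger ratio on the minus array. The minus array was also the wider over all named genes, with a median absolute deviation of 0.113 against 0.0922 on the plus array. The share of all genes with the larger ratio on the minus array was not computed. The deposited columns correlated at -0.301 (Pearson) and -0.154 (Spearman) over 8014 probes, which are not replicates. A dye component, computed from the difference between the arrays, was past 2-fold for 181 genes of opposite sign on the arrays (4.18%), none of them a member. The SD is computed from the same difference, so a dye effect cannot be told from other differences between these arrays. Among the members, whatever their signs, that component was 0.34 for Klra6, past 2-fold, and 0.22 for Klra7, the largest of the family, and 0.030 for Klra10, the smallest. Its part in the ratios of Klra6 and Klra7 was not tested.

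Ratios were set beside the relatedness of the promoter windows. Among the 7 members whose windows hold the block, the 21 pairs had identities between 68.2% and 91.8%, over 219 to 305 aligned positions. The most alike pair, Klra6 and Klra9 (91.8%), differed by 0.55 in mean log10 ratio, by 0.33 on the plus array and by 0.76 on the minus array. Klra6 and Klra5 (90.8%) differed by 0.59. This difference was 0.12 on the plus array and 1.05 on the minus array. Klra5 and Klra9 (88.3%) differed by 0.040 in the mean, but by 0.21 on the plus array and, in the opposite direction, by 0.29 on the minus array. Likewise, Klra4 and Klra7 (80.3%) differed by 0.013 in the mean, and by 0.11 on the plus array and 0.087 on the minus array in opposite directions. Klra17 differed by 0.40 from Klra4 and by 0.39 from Klra7, at identities of 84.8% and 84.1%. On the plus array these differences were 0.34 and 0.23, and on the minus array 0.45 and 0.54. The pairs share genes and are not independent, and promoter identity is not the identity of the transcripts or probes. Probe sequences were not analysed here, so how much of any member's ratio came from transcripts of its relatives was not tested.

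**Figure D3:**
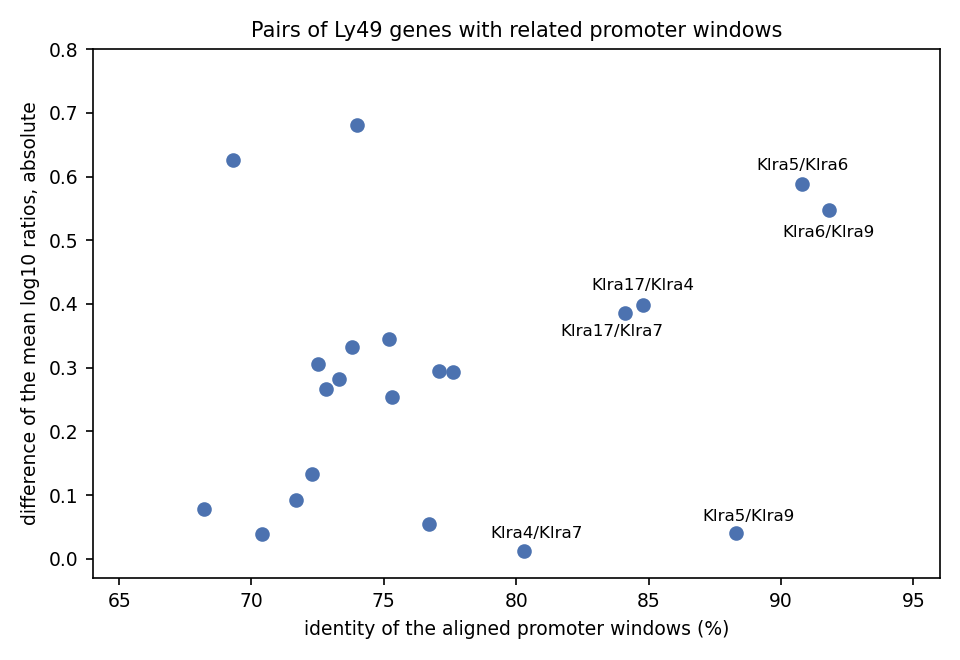
Identity of the aligned RefSeq promoter windows in percent (horizontal) against the absolute difference of the mean log10 ratios (vertical) for the 21 pairs of 7 Ly49 genes. Pairs over 80% identity are named, and they range from 0.013 for Klra4 and Klra7, whose arrays differed by 0.11 and 0.087 in opposite directions, to 0.59 for Klra5 and Klra6, which was 0.12 on the plus array and 1.05 on the minus array.

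The other lectin-like receptors of the NK gene complex and its relatives lay mainly on the same side. Of 20 listed, 9 were measured. Their median was -0.54, and 7 of them were called negative and 1 positive. Klrd1, which encodes CD94, was at -0.98 ± 0.012 (SD, 2 arrays), Klrb1c, which encodes NK1.1, at -0.76 ± 0.081, and the NKG2 genes Klrc3 at -0.64 ± 0.11 and Klrc1 at -0.62 ± 0.12. Klrg1, an inhibitory receptor of effector lymphocytes, stood on the positive side at 1.09 ± 0.025.

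Among the signalling partners of the receptors, 3 genes were called, all from the list of activating adaptors and kinases. The difference between this list and that of ITIM signalling was not tested. Of 7 measured adaptors and kinases of activating receptors, 3 were called negative and 0 positive, where 5.03% of all named genes were called negative. The median of the 7 was -0.18 (-0.090 on the plus array and -0.27 on the minus array), with 5 means below 0 and 2 above. The called genes were Fcer1g, the Fc receptor gamma chain, at -0.44 ± 0.055, and Tyrobp, the DAP12 partner of Ly49D, at -0.39 ± 0.023. Syk, a kinase gene, was called at -0.31 ± 0.049. These 3 called genes are also expressed in myeloid cells, and the part of such cells in their ratios was not tested. Hcst, which encodes the related adaptor DAP10, was at 0.20 ± 0.0011 and was not called. Of 6 measured genes that act downstream of ITIMs, none was called, which is near the 8.75% called among all named genes. The median of these 6 was -0.043, with opposite signs on the plus array (0.0020) and the minus array (-0.056). The largest of these were Ptpn11, which encodes SHP-2, at 0.23 ± 0.13 and the kinase gene Fyn at 0.16 ± 0.073.

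Of 17 measured genes of the MHC class I ligands and their assembly, none was called. Of all named genes 8.75% were called, so 0 of 17 lies near that share. The median of these 17 was 0.078 (0.064 on the plus array and 0.12 on the minus array). The mean of each of the 17 was above 0, whereas 48.8% of all genes had a mean below 0. The largest were the chaperone gene Calr at 0.22 ± 0.050 and H2-M3, a nonclassical class I gene, at 0.16 ± 0.011. Of 14 measured transcription factors known from Ly49 or NK cell gene control, 3 were called positive and 0 negative, against 3.72% and 5.03% of all named genes. The called factors were Gata3 at 0.59 ± 0.0057, Prdm1, which encodes Blimp-1, at 0.40 ± 0.088 and Nfil3 at 0.39 ± 0.056. The median of the 14 was 0.034, with 6 means below 0 and 8 above. The median of this list was 0.13 on the plus array and -0.035 on the minus array. The called Ly49 genes and these called factors lay on opposite sides, but 6 of the 14 factor means were on the negative side. Whether the factors and the Ly49 ratios are linked was not tested.

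**Figure D4:**
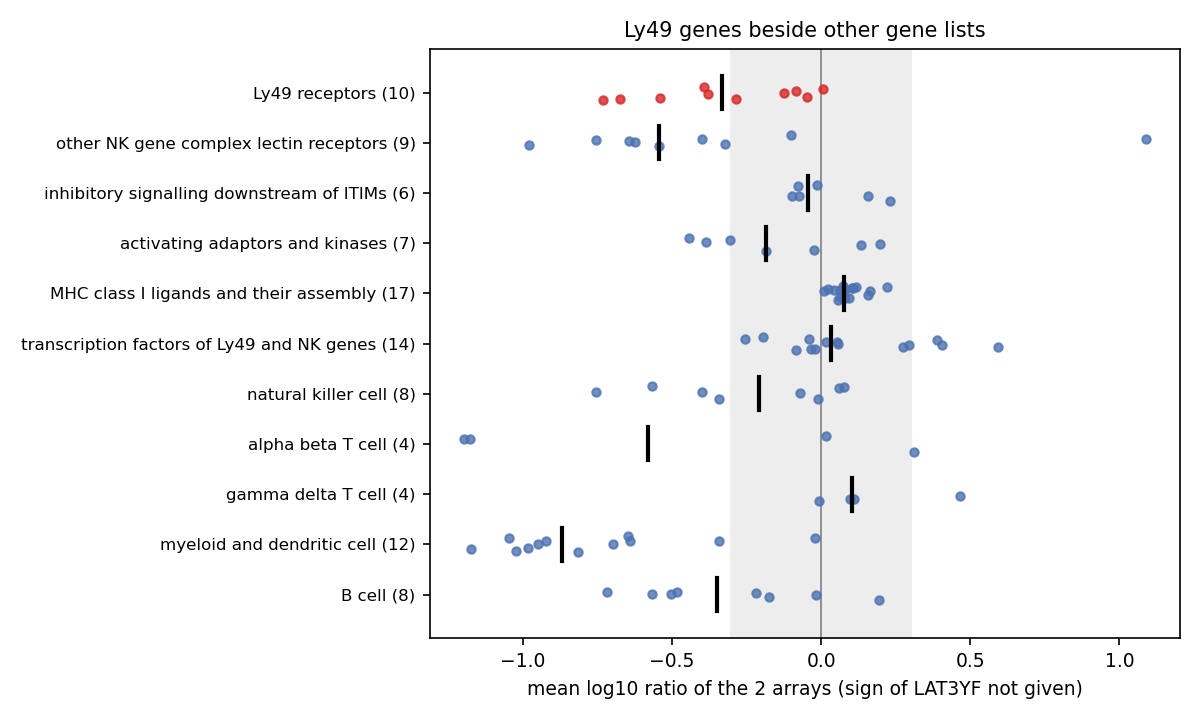
Mean log10 ratio of the 2 arrays (horizontal) for each gene of the Ly49 family (red) and of other lists (blue), with the number of measured genes in brackets, black bars at the medians and the band under 2-fold in grey. The Ly49 genes run from -0.73 to 0.0077, the MHC class I list lies within the band on the positive side, and the myeloid list has the lowest median, -0.87.

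Some of the markers of several other cell types lay on the side of the called Ly49 genes. Of 8 measured NK cell markers, whose median was -0.21 (-0.15 on the plus array and -0.22 on the minus array), 4 were called negative. Txk was at -0.57 ± 0.0056 and Fcgr3 at -0.34 ± 0.015, Klrb1c and Klrk1 (-0.40 ± 0.22) being shared with the lectin list. The NK marker Ncr1, which encodes NKp46, was at -0.072 ± 0.031 and Itga2, which encodes CD49b, at 0.077 ± 0.043, and neither was called. The remaining NK markers, Il2rb at -0.011 ± 0.028 and Cd244a at 0.061 ± 0.12, were not called either. Of 12 measured myeloid and dendritic cell markers, whose median was -0.87, 11 were called negative and each of the 12 means was below 0, led by Slc40a1 at -1.17 ± 0.021, Adgre1 at -1.05 ± 0.035, Vcam1 at -1.02 ± 0.058 and Mrc1 at -0.98 ± 0.066. The Ly49 genes known from myeloid and plasmacytoid cells, Klra2 and Klra17, had means near 0, each with opposite signs on the arrays. Of 8 measured B cell markers, whose median was -0.35, 4 were called negative, led by Ighm at -0.72 ± 0.031. Of the 8 means 7 were below 0, and only that of Cd22, at 0.19 ± 0.024 and not called, was above. Of 4 alpha beta T cell genes, Cd8a at -1.20 ± 0.77 and Cd8b1 at -1.18 ± 0.082 were called negative and Zbtb7b at 0.31 ± 0.075 positive, while Cd4 was at 0.018 ± 0.047. Their median was -0.58, or -0.30 on the plus array and -0.62 on the minus array. Of 4 measured gamma delta T cell and CD3 genes, Sox13 was called positive at 0.46 ± 0.034, with a median of 0.10 (0.058 on the plus array and 0.15 on the minus array). Because the files hold ratios and no levels, the labelled cell type could not be checked against its markers. The part of these cell types in the Ly49 ratios was not tested.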

How the data were processed

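Total RNA of sorted LAT3YF and wildtype CD5-positive gamma delta T cells was measured on 2 dye-reversed 2-colour arrays. The deposited table holds a log10 ratio for every probe on either array, as the authors computed it. Base 10 is an assumption, because neither labels nor table name the base or numerator. No source used here names the scanner, background correction or normalization. The deposited medians were -0.0028 (+ polarity) and 0.0010 (- polarity). Intensities were not analysed here, so signal depth is unknown; precision is limited by there being 2 arrays.

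Of 8014 probes, 4654 had 1 gene in the platform annotation, 73 several, none of these a Klra gene, and 3287 none. Single-gene probes were used and averaged per gene, giving 4331 genes. The - polarity array was multiplied by -1 and the arrays averaged. The rule of size was run on simulated data without a dye effect, which checks the computation only and not its error rate on these arrays. Promoter windows are RefSeq's (GRCm38.p6), aligned locally with Biopython 1.88 (match 1, mismatch -1, gap opening -2, extension -0.5).

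All members are named, and in other lists called genes up to 4 per side, or, with none called, the 2 largest means. Exceptions chosen after their values were seen are Hcst, Ncr1, Itga2, Il2rb, Cd244a, Cd22 and Cd4. Members and lists were chosen with earlier results of these data known. Alternatives were single arrays, centring, scaling, probe choice, thresholds and log base.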

Additional observations from a re-analysis of the deposited data

How the results depend on the processing

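The median of the Ly49 genes stayed below 0 in every setting that recomputed it, from -0.44 (- polarity array alone) to -0.21 (+ polarity array alone). The count of called members was 5 after centring or scaling the arrays. Other probe choices could not alter the members' values, since each has 1 probe and no probe with several genes names a Klra gene. It was 3 with the + polarity array alone, at a 3-fold threshold and where each array had to pass 2-fold on its own, and in each of these it was Klra1, Klra6 and Klra10. It was 6 with the - polarity array alone and at 1.5-fold, where Klra22 joined. If the values were natural logs, only Klra1 would pass (count 1), and if they were log2, 0 members would. The share of all genes called, 8.75%, was 17.1% with the - polarity array alone, 17.9% at 1.5-fold, 3.32% at 3-fold, 0.393% read as log2 and 1.43% read as natural logs. Counting the Klra22 probe as Klra1, an alternative chosen after seeing the data, gave Klra1 a mean of -0.51 and left 5 members called. No paired analysis was possible because the result comes from no test. A comparison of ratios with protein identity was planned but not run, since protein sequences were not used here, and promoter windows were compared instead. Signal over background was not analysed here, so a small ratio of a dim probe could not be told from a small difference.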

Other observations

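Klra16, a Klra gene that RefSeq places outside the run of cluster genes, was left out of the family. Its probe gave a log10 ratio of 0.47 on the + polarity array and, after turning, -0.38 on the - polarity array, with a mean of 0.044 ± 0.60 (SD, 2 arrays). The dye component computed from the difference between its arrays, 0.43, was larger than in any of the 10 Ly49 genes, whose largest was 0.34 for Klra6.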
